A study of Mus musculus with 6 samples.

Results

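The 36 genes described here make cholesterol and fatty acids or govern that synthesis, and they were compared between the parental tumor line and its mutant M8. They were chosen by gene symbol, 18 for cholesterol synthesis, 5 for its control by SREBP and for sterol transport, and 13 for fatty acid synthesis, of 24346 gene symbols in the deposited values. RNA sequencing had been performed on CT26.mMR1 cells, in which CT26, a mouse colorectal tumor line of BALB/c origin, was retrovirally transduced with mouse MR1, the molecule that presents metabolites to MAIT cells (mucosal-associated invariant T cells). Parental cells (labelled MR1-overexpressing) and M8 cells (labelled MR1-overexpressing mutant) were each measured in 3 replicates, and both lines carried the MR1 transgene. M8 arose from cells treated with the mutagen N-ethyl-N-nitrosourea (ENU) and is 1 clone, picked in a screen on a MAIT reporter line and then for its surface MR1, so that the effect of its selected phenotype and that of any other difference between this clone and the parental line cannot be told apart. The sample titles of both lines carry the designation cl9, which the labels do not explain. The labels give no age, treatment dose or culture batch.

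Cells make cholesterol from acetyl-CoA by way of mevalonate, isoprenoids, squalene and lanosterol, and they make fatty acids from the same acetyl-CoA by way of malonyl-CoA. Both pathways are transcribed under SREBP, a membrane-bound transcription factor encoded by Srebf1 and Srebf2. When sterols are scarce, Scap escorts SREBP from the endoplasmic reticulum to the Golgi, where proteases release its active part, and when sterols are plentiful, the Insig proteins hold Scap back. The products of Srebf2 act mainly on cholesterol genes and those of Srebf1 on fatty acid genes. Tumor cells are known for high rates of both syntheses.

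Before the members, the libraries were examined. The values are FPKM, fragments scaled by the length of the transcript and by all mapped fragments of the library, so that levels can be compared between genes. Their precision is limited by depth, which FPKM does not state. Depth was estimated as the value that put most low FPKM near whole numbers of reads. Relative depth by this estimate was 0.949 to 1.05 in parental replicates and 0.757 to 0.867 in M8 replicates. The estimate is rough, since only 27.0% to 32.6% of the low values then lay near a whole number. Of 12 colon epithelium markers, 10 had a mean FPKM below 1 and 5, Epcam and Krt19 among them, were listed at 0 in all 6 samples, whereas all 7 mesenchymal markers were above that level, Vim at 1751 to 2137. Krt18 and Krt20 were the epithelial markers above it, so the labelled tissue was checked against markers that were mostly absent. M8 replicate 1 stood apart, since all 6 hepatocyte markers were highest in it, with a summed FPKM of 14.5 against 1.43 to 2.56 in the other 5 samples (Alb at 4.31 against at most 0.0863). Hepatocytes are themselves rich in lipid synthesis genes. The part of this signal in the results was not tested, and the counts of called genes in each list are given with and without that replicate. Adipocyte markers summed to 6.01 to 8.68 in parental and 5.83 to 6.57 in M8 replicates, with Adipoq, Lep and Cfd listed at 0.

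All 36 genes had a mean FPKM of at least 1 and were tested. With limma on log2(FPKM + 1), 10 were higher and 4 were lower in M8 at an adjusted p below 0.1, and 22 did not pass. Over all 10597 genes tested, 21.2% were called higher and 16.5% lower (37.7% in either direction), against 27.8% and 11.1% of the 36, shares near this background. The differences were small, with M8 to parental ratios from 0.757 for Acss2 to 1.34 for Ebp among the 14 called. In each of these 14 genes the M8 replicates lay wholly above or wholly below the parental replicates. Of the 36, 11 lay wholly above and 7 wholly below, against 24.8% and 20.4% of all genes tested (45.2% in either direction). Without M8 replicate 1, Msmo1, Stard4 and Elovl6 were no longer called and Elovl5 was called higher, while over all genes 15.2% were then called higher and 10.9% lower.

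**Figure D1:**
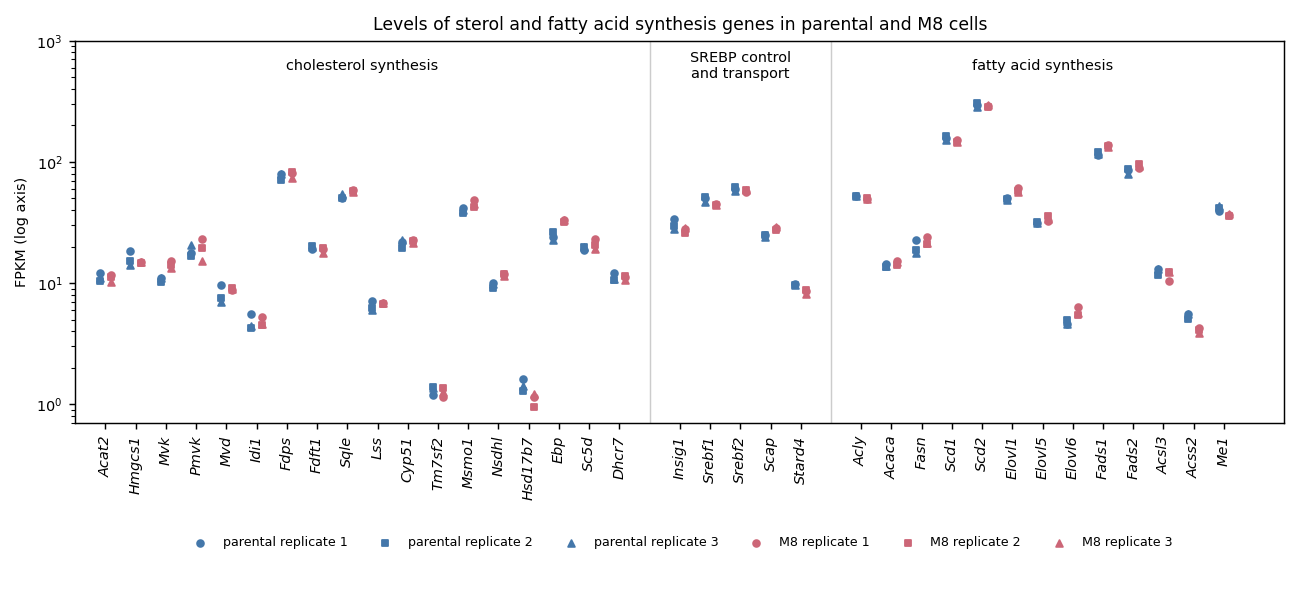
FPKM of each gene (log axis) in the 3 parental (blue) and 3 M8 (red) replicates, one marker shape per replicate number, in pathway order. Levels run from about 1 FPKM for Tm7sf2 and Hsd17b7 to 282 to 308 for Scd2, and the lines lie close together for every gene.

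The genes differ in the sequence before their start sites, and 6 are shown. They are the 4 cholesterol genes higher in M8 that have a promoter entry (Mvk, Msmo1, Ebp and Nsdhl) and, to set beside them, Hmgcs1 and Fasn, classic SREBP targets of the cholesterol and fatty acid pathways that were not called. Each line gives 250 bases before an annotated start site, 5′ to 3′ on the strand of the gene, from RefSeq promoters of GRCm38.p6. They hold the bases of the reference strain and not of CT26 cells. Capitals mark the CCAAT box bound by NF-Y, a usual partner of SREBP, read as CCAAT or on the other strand as ATTGG, and the sterol regulatory element, searched as TCACNCCAC on both strands. The windows lie at chr5:114444019-114444268 on the plus strand for Mvk, chr8:64733579-64733828 on the minus strand for Msmo1, chrX:8193513-8193762 on the minus strand for Ebp, chrX:72918271-72918520 on the plus strand for Nsdhl, chr13:119690101-119690350 on the plus strand for Hmgcs1 and chr11:120824548-120824797 on the minus strand for Fasn.
Mvk: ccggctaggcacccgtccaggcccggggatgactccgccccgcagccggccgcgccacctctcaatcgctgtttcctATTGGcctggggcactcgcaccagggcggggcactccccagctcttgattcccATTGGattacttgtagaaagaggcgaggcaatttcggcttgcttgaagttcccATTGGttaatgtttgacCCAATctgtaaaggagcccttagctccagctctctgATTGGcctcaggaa
Msmo1: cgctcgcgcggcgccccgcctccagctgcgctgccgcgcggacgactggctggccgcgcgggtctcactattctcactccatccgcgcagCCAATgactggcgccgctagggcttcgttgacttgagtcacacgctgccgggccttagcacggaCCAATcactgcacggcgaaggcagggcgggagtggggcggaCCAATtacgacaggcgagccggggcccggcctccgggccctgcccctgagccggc
Ebp: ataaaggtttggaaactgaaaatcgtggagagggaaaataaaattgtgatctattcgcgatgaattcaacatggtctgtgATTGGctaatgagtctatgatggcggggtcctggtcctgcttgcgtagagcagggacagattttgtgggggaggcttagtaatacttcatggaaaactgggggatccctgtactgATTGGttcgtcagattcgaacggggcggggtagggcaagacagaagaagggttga
Nsdhl: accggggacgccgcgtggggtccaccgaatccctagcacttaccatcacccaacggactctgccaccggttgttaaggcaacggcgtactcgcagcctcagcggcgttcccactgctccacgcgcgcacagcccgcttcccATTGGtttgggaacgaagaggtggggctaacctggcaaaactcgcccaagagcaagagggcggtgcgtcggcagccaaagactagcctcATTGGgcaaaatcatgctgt
Hmgcs1: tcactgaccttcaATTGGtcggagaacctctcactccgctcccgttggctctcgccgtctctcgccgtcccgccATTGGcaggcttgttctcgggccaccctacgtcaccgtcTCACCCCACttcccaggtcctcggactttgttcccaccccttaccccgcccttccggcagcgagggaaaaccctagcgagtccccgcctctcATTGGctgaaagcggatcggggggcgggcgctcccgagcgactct
Fasn: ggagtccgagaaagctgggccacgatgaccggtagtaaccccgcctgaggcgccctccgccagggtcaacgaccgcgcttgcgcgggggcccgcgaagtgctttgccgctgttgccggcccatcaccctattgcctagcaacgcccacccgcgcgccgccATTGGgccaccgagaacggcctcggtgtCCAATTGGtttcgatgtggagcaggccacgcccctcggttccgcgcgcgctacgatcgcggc

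Mvk has 5 CCAAT boxes in these bases, Msmo1, Hmgcs1 and Fasn have 3 each, and Ebp and Nsdhl have 2 each. Of the Fasn boxes, 2 overlap on opposite strands in the run CCAATTGG. Hmgcs1 alone among the members with a promoter entry holds the sterol regulatory element as searched, as TCACCCCAC starting 137 bases before the start site.

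Of the 36 genes, 29 matched RefSeq promoters, with 37 windows of 300 bases that run from 250 before to 50 after the start. Fdps, Fdft1, Sqle, Stard4, Scd1, Scd2 and Fads1 had no entry. A CCAAT box on either strand lay in at least 1 window of 14 of 15 cholesterol genes (93.3%), 3 of 4 control genes and 7 of 10 fatty acid genes (70%), against 41.1% of 27025 genes with promoters and 43.7% of those among the genes tested. The TCACNCCAC element was present in 1 of 29 members against 1.44% of all genes, and in 1.24% of all 32851 windows. GGGCGG, the Sp1 box, was found in 14 of 15 cholesterol genes, all 4 control genes and 6 of 10 fatty acid genes, against 38.2% of all genes but 71.4% of those tested. These are matches of letters in a window and not measured binding sites. The fatty acid genes without a CCAAT match include Acaca and Elovl6, and the 1 cholesterol gene without it is Acat2. The only Acaca window, at chr11:84195188-84195487, lies inside the gene (chr11:84129635-84401651). The bases before the annotated beginning of Acaca were therefore not searched.

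Cholesterol synthesis was then followed along the pathway. Of its 18 genes, 5 were higher in M8, none was lower and 13 did not pass (27.8% and 0%, against 21.2% and 16.5% of all genes tested), and the median log2 fold change was 0.059, beside 0.0069 for all genes tested. This median rested on few samples, being -0.0037 without parental replicate 2, 0.032 without M8 replicate 1 and 0.088 without M8 replicate 3. At an unadjusted p below 0.05, 5 were likewise higher and 0 lower (2428 and 1921 of all 10597 genes), and the other scalings and tests gave 3 to 5 higher and 0 to 1 lower. The 5 were Mvk, Sqle, Msmo1, Nsdhl and Ebp, with ratios from 1.12 to 1.34, and without M8 replicate 1 the count was 4. Of these genes, 4 act after squalene. With upper-quartile scaling the median of the list was -0.00015, while that of all genes was -0.049.

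Mevalonate is made and phosphorylated by the early enzymes, and of these 7 genes 1, Mvk, passed the test (14.3% higher, against 21.2% of all genes tested). Whether the early and late steps differ was not tested. Mvk encodes mevalonate kinase (chr5:114444264-114460591), and its FPKM was 11.0, 10.1 and 11.0 in the parental and 15.3, 14.1 and 13.2 in the M8 replicates. All M8 replicates were above all parental ones. The means were 10.7 ± 0.472 and 14.2 ± 1.05 (SD, n = 3), a ratio of 1.33 and a log2 fold change of 0.38 (SE 0.0634, limma adjusted p = 0.00295). The difference was called under all 18 other fits, with log2 fold changes of 0.32 to 0.43.

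Hmgcs1 encodes HMG-CoA synthase, which makes the precursor of mevalonate. It was measured at 18.3, 15.3 and 14.2 FPKM in parental cells and at 14.9, 14.6 and 14.8 FPKM in M8. The lines overlapped, with parental replicate 1 the highest of the 6 samples, and the log2 fold change of -0.094 (SE 0.0798, adjusted p = 0.406) became 0.0041 without that replicate. The thiolase gene Acat2 had nearly the same mean in both lines, 11.1 ± 0.834 and 11.0 ± 0.678 FPKM (SD, n = 3).

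Pmvk, Mvd, Idi1 and Fdps, which carry phosphomevalonate on to farnesyl pyrophosphate, all overlapped between the lines and had ratios of 1.01 to 1.11. Fdps was the most abundant of them, with a mean FPKM of 76.5 ± 5.17 in parental cells and 79.1 ± 4.43 in M8 (SD, n = 3). Pmvk ranged from 15.3 to 23.1 FPKM within M8 alone, and its residual SD on the log2 scale exceeded that of 96.9% of genes tested. Mvd had values of 9.60, 7.55 and 6.96 FPKM in parental replicates and of 8.79, 9.17 and 8.89 in M8. Parental replicate 1 was the highest for Mvd as well, and without it Mvd was called higher (log2 fold change 0.27, limma adjusted p = 0.0166). In the reported fit the change was 0.15 (adjusted p = 0.272). As replicates were left out it fell as low as 0.064, with an adjusted p of up to 0.630. Mvd shares 3213 bases with the noncoding RNA gene Gm51557. The median residual SD of the 7 mevalonate genes was 0.125, against 0.0736 over all genes tested.

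Squalene and the sterols are made by the other 11 genes, of which 4 were higher in M8 (36.4%, against 21.2% of all genes tested) and 7 did not pass. Without M8 replicate 1, 3 were higher (27.3%, against 15.2% of all genes). Sqle encodes squalene epoxidase (chr15:59315092-59331193), a rate-limiting oxidation of the pathway, and had values of 49.9, 50.7 and 54.3 FPKM in parental and 59.0, 57.9 and 56.9 FPKM in M8 cells. The M8 replicates were all higher and close to each other. The ratio was 1.12 and the log2 fold change 0.16 (SE 0.0446, limma adjusted p = 0.0233), but the call was lost with quantile normalization (0.087, adjusted p = 0.141).

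Sterol methyl groups are removed by Msmo1 and Nsdhl, and Ebp then shifts a double bond in the sterol ring. For Ebp (chrX:8185329-8193512) the parental replicates had 24.2, 26.6 and 22.7 FPKM and the M8 replicates 33.4, 32.0 and 33.1 FPKM. Every M8 value was thus above the highest parental one, and the ratio of 1.34 was the largest among the 36 genes (log2 fold change 0.41, SE 0.0587, limma adjusted p = 0.00152). Nsdhl (chrX:72918521-72958528), also on the X chromosome, was at 10.005, 9.05 and 9.88 FPKM in parental cells against 11.8, 11.8 and 11.5 FPKM in M8. The lines did not overlap, the ratio was 1.21, and the log2 fold change was 0.26 (SE 0.0558, adjusted p = 0.00940). Both calls held under all 18 other fits.

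Msmo1 (chr8:64718123-64733578) was at 41.7, 37.7 and 40.3 FPKM in the parental line and 48.3, 42.6 and 44.8 FPKM in M8. These ranges were separated by less than 1 unit of FPKM, between parental replicate 1 and M8 replicate 2. The log2 fold change of 0.18 (SE 0.0569, adjusted p = 0.0453) passed, but it did not pass without parental replicate 2 (adjusted p = 0.138), without M8 replicate 1 (adjusted p = 0.161) or with TPM, quantile normalization or upper-quartile scaling (adjusted p = 0.118 to 0.195).

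The 7 genes of these late steps that did not pass had log2 fold changes from -0.21 to 0.089. Hsd17b7, the reductase that works with Msmo1 and Nsdhl, was the lowest of them and had 1.62, 1.28 and 1.42 FPKM in parental cells and 1.14, 0.953 and 1.22 in M8. Its M8 values were all below the parental ones, opposite to Msmo1 and Nsdhl, but it lies near the filter on low values and did not pass (log2 fold change -0.21, SE 0.108, adjusted p = 0.171). It was called lower only with eBayes without the trend (adjusted p = 0.0639). Fdft1, Lss, Cyp51, Tm7sf2, Sc5d and Dhcr7, from squalene synthase to the final reductases, had overlapping lines and ratios of 0.951 to 1.07. Fdft1 shares 774 bases with Ctsb on the opposite strand and Lss shares 11269 bases with the antisense gene 4930483K19Rik, and the strand setting of the counting is not given in the sources used here, so their reads cannot be told apart from those of their neighbours.

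**Figure D2:**
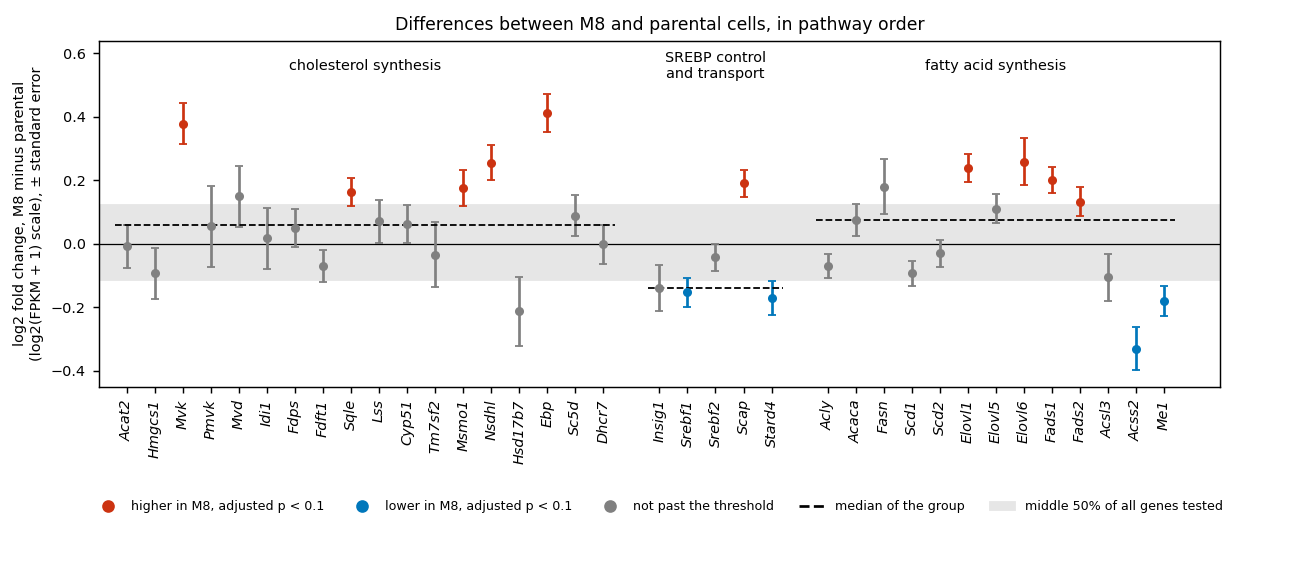
Log2 fold change of each gene (M8 minus parental, log2(FPKM + 1) scale) with its standard error, in pathway order. Red and blue points passed an adjusted p of 0.1, dashed lines mark the group medians (0.059, -0.14 and 0.076) and the gray band holds the middle 50% of all genes tested, from -0.12 to 0.12, with Ebp and Mvk farthest above it and Acss2 farthest below.

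The control genes were compared next, since they set the transcription of both pathways. Of the 5, Scap was higher, Srebf1 and Stard4 were lower, and Srebf2 and Insig1 did not pass (20% higher and 40% lower, against 21.2% and 16.5% of all genes tested). Their median log2 fold change was -0.14. It stayed below 0 under every scaling (-0.20 to -0.14), but moved to -0.058 without parental replicate 1 and to -0.094 without M8 replicate 2. Without M8 replicate 1, 1 control gene was higher and 1 lower, while 15.2% and 10.9% of all genes were called. Scap, the escort of SREBP (chr9:110333288-110384949), was at 25.1, 24.9 and 24.1 FPKM in parental and at 28.5, 27.5 and 29.05 FPKM in M8 cells. All M8 replicates were higher, with a ratio of 1.15 and a log2 fold change of 0.19 (SE 0.0440, limma adjusted p = 0.0120), and the call held under all 18 other fits.

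Srebf1 (chr11:60199084-60224186) had 50.4, 51.0 and 46.7 FPKM in the parental replicates and 44.9, 44.1 and 43.8 FPKM in the M8 replicates. The lines did not overlap, and parental replicate 3 was nearest to M8. The ratio was 0.897 and the log2 fold change -0.15 (SE 0.0455, limma adjusted p = 0.0332), and without parental replicate 2 the adjusted p was 0.104. Srebf1 shares 114 bases with Rai1 on the other strand.

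Srebf2 was measured at 59.996, 61.9 and 57.6 FPKM in parental cells and 56.5, 59.0 and 58.6 FPKM in M8. Its lines overlapped, and the log2 fold change was -0.043 (SE 0.0427, adjusted p = 0.481). It hosts Mir33 in an intron, a microRNA known to repress cholesterol efflux genes, which these values do not measure. With quantile normalization Srebf2 was called lower (-0.12, adjusted p = 0.0794).

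Insig1, which retains Scap when sterols are plentiful and is itself an SREBP target, had 34.0, 29.3 and 27.9 FPKM in parental and 28.1, 25.7 and 28.6 FPKM in M8 cells. Parental replicate 1 was again the highest and the lines overlapped (log2 fold change -0.14, SE 0.0727, adjusted p = 0.183). The adjusted p was 0.0834 without parental replicate 3 and 0.0753 with upper-quartile scaling. As replicates were left out, the log2 fold change ranged from -0.20 to -0.058, with an adjusted p of up to 0.491. Insig1 shares 7251 bases with the noncoding RNA gene Gm35223. Stard4, a carrier of cholesterol between membranes, had 9.83, 9.58 and 9.70 FPKM in parental cells and 8.58, 8.82 and 8.15 FPKM in M8. All M8 values were lower, at a ratio of 0.878 (log2 fold change -0.17, SE 0.0542, adjusted p = 0.0434), and the call was lost without M8 replicate 1 (-0.18, adjusted p = 0.1005) or M8 replicate 3 (-0.14, adjusted p = 0.132).

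Fatty acid synthesis had 13 genes, of which 4 were higher in M8, 2 were lower and 7 did not pass. These shares were 30.8% higher and 15.4% lower, against 21.2% and 16.5% of all genes tested. The median log2 fold change was 0.076. The median was 0.019 with upper-quartile scaling and 0.043 with TPM, which also moved the median of all genes, from 0.0069 to -0.049 and -0.028. It was 0.039 with quantile normalization (-0.00093 over all genes) and 0.11 with GC and length correction (0.013 over all genes). At an unadjusted p below 0.05, 5 were higher and 3 lower (2428 and 1921 of all 10597 genes). The 4 that were higher (Elovl1, Elovl6, Fads1 and Fads2) are among the 8 genes that desaturate, lengthen or activate fatty acids (50%, against 21.2% of all genes tested), and the 2 that were lower (Acss2 and Me1) are among the 5 of precursor supply and synthesis (40%, against 16.5%). Other fits did not keep to these steps, since the desaturase gene Scd1 was called lower in 5 of 18, Fasn was called higher in 4 and Acaca in 2, and Fads2 was not called in 8. Among the 5 genes of precursor supply and synthesis the median was -0.071, and among the 8 of desaturation, elongation and activation it was 0.12. Whether these differ was not tested. Without M8 replicate 1, 4 of the 13 were higher and 2 lower, Elovl5 having passed and Elovl6 not. Over all genes, 15.2% were then higher and 10.9% lower.

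Precursors come from citrate through Acly, from acetate through Acss2, and as NADPH through Me1, malic enzyme. Acss2 (chr2:155518043-155562743) was at 5.51, 5.09 and 5.52 FPKM in parental cells and at 4.24, 4.09 and 3.87 FPKM in M8. The lines were well separated, the ratio of 0.757 was the lowest of the 36 genes, and the log2 fold change was -0.33 (SE 0.0684, limma adjusted p = 0.00746). Acss2 shares 9891 bases with its antisense gene Acss2os, whose reads cannot be told apart from its own without the strand setting.

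Me1 (chr9:86581363-86695914, sharing 473 bases with the antisense gene A330041J22Rik) was at 39.1, 41.4 and 43.0 FPKM in the parental and 36.1, 35.4 and 37.0 FPKM in the M8 replicates. M8 was lower in every replicate (ratio 0.879, log2 fold change -0.18, SE 0.0469, adjusted p = 0.0197). Acss2 was called lower in all 17 fits that tested it besides the reported one, and Me1 in all 18. Acly, ATP citrate lyase, had means of 52.3 ± 0.354 and 49.8 ± 0.906 FPKM (SD, n = 3). Its M8 replicates were all below the parental ones by a small margin, and it did not pass (log2 fold change -0.071, SE 0.0380, adjusted p = 0.192) but was called lower with TPM, quantile normalization and upper-quartile scaling (adjusted p = 0.0874, 0.0223 and 0.0290).

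The 2 enzymes of synthesis itself, Acaca and Fasn, did not pass. Acaca, acetyl-CoA carboxylase, had 14.4, 13.6 and 13.7 FPKM in parental and 15.1, 14.1 and 14.9 FPKM in M8 cells. Its lines overlapped at a log2 fold change of 0.076 (SE 0.0506, adjusted p = 0.287). The Acaca gene shares 19116 bases with the opposite-strand gene Gm11437, whose reads cannot be told apart from its own without the strand setting. Fasn, fatty acid synthase, had 22.5, 18.6 and 17.5 FPKM in parental cells and 24.0, 21.0 and 21.5 FPKM in M8.

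In both lines replicate 1 had the most Fasn RNA, and the overlap came from parental replicate 1. The log2 fold change was 0.18 (SE 0.0872, limma adjusted p = 0.152). Fasn was called higher without parental replicate 1 (0.28, adjusted p = 0.0165), with the replicate number as a block (adjusted p = 0.0440) and with correction for GC content and length (0.24, adjusted p = 0.0432). Acaca was called higher with that correction only, with or without the block (0.14, adjusted p = 0.0618 and 0.0741). Over all 18 other fits the log2 fold changes were 0.11 to 0.28 for Fasn and 0.019 to 0.14 for Acaca. The adjusted p reached 0.399 for Fasn and 0.813 for Acaca.

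Elongases and desaturases act on the products. Elovl1, which makes very long saturated chains (chr4:118426874-118432953), had 50.03, 49.1 and 48.4 FPKM in the parental and 61.0, 57.3 and 56.4 FPKM in the M8 replicates. Its M8 values were all higher, at a ratio of 1.18 (log2 fold change 0.24, SE 0.0434, limma adjusted p = 0.00414), and the call held under all 18 other fits. Elovl1 shares 53 bases with the opposite-strand gene Cdc20, an activator of the anaphase complex, which had a mean FPKM of 62.7 ± 4.98 in parental cells and 99.5 ± 5.56 in M8 (SD, n = 3; log2 fold change 0.66). The part of Cdc20 reads in the Elovl1 values was not tested.

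Elovl6, which lengthens palmitate (chr3:129532386-129638495), was at 4.55, 4.98 and 4.57 FPKM in parental cells and 6.36, 5.43 and 5.70 FPKM in M8. M8 was higher throughout and M8 replicate 1 was the highest, with a ratio of 1.24 and a log2 fold change of 0.26 (SE 0.0741, adjusted p = 0.0294). Without M8 replicate 1 it was 0.20 (adjusted p = 0.112). Elovl5, an elongase of polyunsaturated chains, had means of 31.4 ± 0.343 and 34.0 ± 1.56 FPKM (SD, n = 3), with all M8 replicates above the parental ones. Its adjusted p was 0.101 and fell to 0.0823 without M8 replicate 1. Elovl5 shares 5334 bases with the noncoding RNA gene Gm34771.

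Fads1 and Fads2, neighbouring genes for desaturases of polyunsaturated fatty acids on chromosome 19, were both higher. For Fads1 (chr19:10182877-10196874) the values were 115, 122 and 116 FPKM in parental and 138, 135 and 132 FPKM in M8 cells. The lines were clearly apart, with a ratio of 1.15 and a log2 fold change of 0.20 (SE 0.0401, limma adjusted p = 0.00638). For Fads2 (chr19:10062765-10101503) they were 86.4, 86.7 and 79.9 FPKM in parental and 89.8, 95.5 and 92.2 FPKM in M8 cells.

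The Fads2 values also did not overlap, at a ratio of 1.10 (log2 fold change 0.13, SE 0.0458, adjusted p = 0.0578). Fads1 was called under all 18 other fits, but Fads2 was lost in 8 of them, among them 3 that left out 1 replicate (parental 3, M8 2 or M8 3, adjusted p = 0.121 to 0.188). With quantile normalization the log2 fold changes fell to 0.115 for Fads1 (adjusted p = 0.0490) and 0.039 for Fads2 (adjusted p = 0.616).

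Scd1 and Scd2, the stearoyl-CoA desaturases that make monounsaturated fatty acids, were the most abundant of the 36 genes. Scd2 had a mean FPKM of 295 ± 12.9 in parental cells and 289 ± 4.53 in M8, and Scd1 of 158 ± 5.34 and 148 ± 3.32 (SD, n = 3). The Scd2 lines overlapped, while all M8 values of Scd1 were below the parental ones (log2 fold change -0.093, SE 0.0404, adjusted p = 0.113). Scd1 was called lower in 5 other fits, among them all 3 of TPM, quantile normalization and upper-quartile scaling (adjusted p = 0.0465, 0.0135 and 0.0167). These genes are closely related neighbours, and how reads common to them were assigned is not given in the sources used here. Acsl3, an acyl-CoA synthetase of lipid droplets, overlapped between the lines (log2 fold change -0.11, adjusted p = 0.312) and shares 9777 bases with Utp14b on its own strand.

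**Figure D3:**
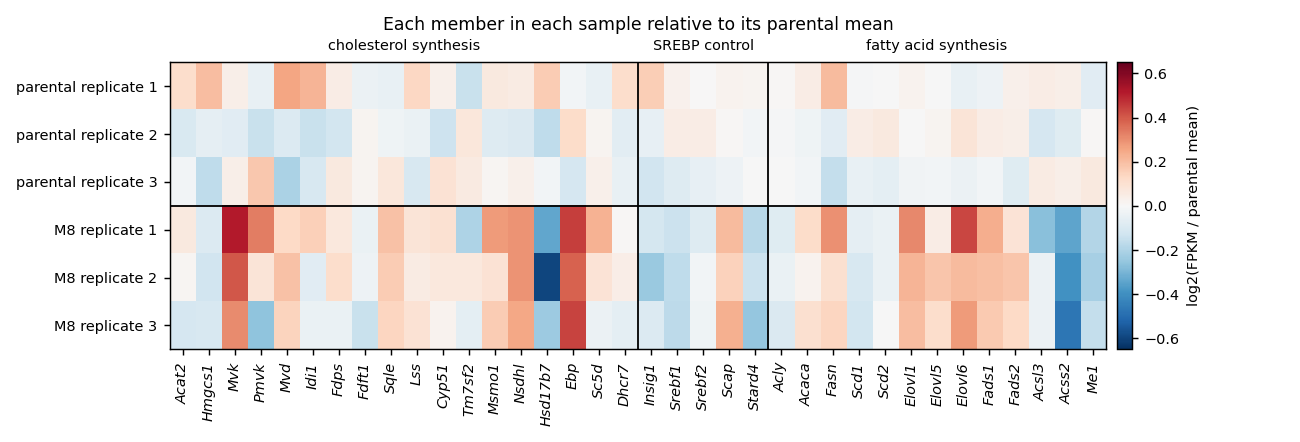
Log2 of the FPKM of each gene in each sample over its parental mean (red above and blue below it), with genes in columns in pathway order and the 6 samples in rows. The genes that were called show 3 M8 rows of 1 color, whereas Hmgcs1, Mvd, Idi1 and Fasn show parental replicate 1 above parental replicates 2 and 3.

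Cholesterol and fatty acid synthesis were then set side by side. The cholesterol list had 5 of 18 genes higher (27.8%) and 0 lower, and the fatty acid list 4 of 13 higher (30.8%) and 2 lower (15.4%), against 21.2% and 16.5% of all genes tested. With TPM or upper-quartile scaling the fatty acid list had 3 genes higher and 4 lower, and all genes turned the same way, from 2250 higher and 1745 lower to 1658 and 2209 with TPM and 1470 and 2769 with upper-quartile scaling. Quantile normalization gave 3 higher and 5 lower in the list (1820 and 1773 over all genes), and GC and length correction 7 and 3 (2339 and 1744). The list medians, 0.059 and 0.076, differed by -0.018 (cholesterol minus fatty acid). This difference changed sign with quantile normalization (0.026) and when parental replicate 3 (0.0051) or M8 replicate 3 (0.022) was left out. Taken between the means of the lists, the same contrast was 0.051, opposite in sign to that of the medians. The order of the lists is thus not resolved by these samples. All log2 fold changes lay between -0.21 and 0.41 for cholesterol and between -0.33 and 0.26 for fatty acid genes.

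The mean log2(FPKM + 1) of the cholesterol genes was 3.88, 3.77 and 3.82 in parental replicates and 3.95, 3.90 and 3.85 in M8 replicates. M8 replicate 3 lay below parental replicate 1, so the lines overlapped at a difference of 0.081 (SD 0.055 in parental and 0.049 in M8). For fatty acid genes the means were 5.24, 5.22 and 5.20 in parental and 5.26, 5.24 and 5.24 in M8, a difference of 0.030 with SDs of 0.020 and 0.012. The M8 means were all above the parental ones here, by at most a few hundredths on the log2 scale. The 5 control genes had means of 4.98, 4.94 and 4.8746 in parental and 4.87, 4.85 and 4.8748 in M8. Parental replicate 3 lay just below M8 replicate 3, so the lines overlapped, and the difference was -0.063.

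Replicates of a line also differed among themselves. Of the 18 cholesterol genes, 9 (50%) were highest within the parental line in replicate 1 and 11 (61.1%) were highest within M8 in replicate 1, against 33.3% and 36.2% of all genes tested. In the fatty acid list these counts were 4 and 7 of 13. The median residual SD was 0.0829 for cholesterol, 0.0472 for fatty acid and 0.0430 for control genes.

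**Figure D4:**
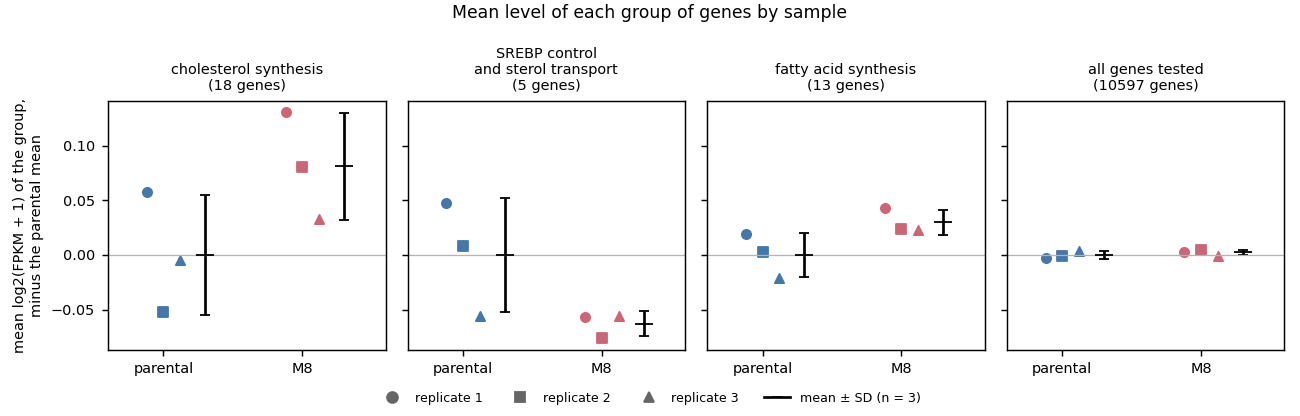
Mean log2(FPKM + 1) of the cholesterol, control and fatty acid genes and of all genes tested in each replicate, less the parental mean of that group, with the mean ± SD of each line (n = 3) as black bars. The cholesterol replicates spread most and overlap between lines, the fatty acid replicates of M8 lie 0.022 to 0.043 above the parental mean, and all genes lie within 0.005 of it.

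Genes around these pathways were read from 6 further lists of 113 genes in all, of which 4 lists bear on sterols, SREBP and fatty acid chains. Over all genes tested the shares called were 21.2% higher and 16.5% lower, or 15.2% and 10.9% without M8 replicate 1. Among 12 tested genes of SREBP processing and degradation, 2 were higher and 3 lower (16.7% and 25%, median -0.017), and 0 and 2 without M8 replicate 1. Insig2, the second Insig protein, was at 26.8, 31.1 and 28.9 FPKM in parental and 22.0, 22.6 and 24.7 FPKM in M8 cells. It was lower in every M8 replicate (ratio 0.7996, log2 fold change -0.31, SE 0.0648, limma adjusted p = 0.00776), in the same direction as Insig1, which did not pass. Mbtps2, the protease that completes SREBP release, was lower too (log2 fold change -0.25, adjusted p = 0.0334), but not without M8 replicate 1 (adjusted p = 0.120), and Erlin1, a brake on SREBP, was higher (0.13, adjusted p = 0.0530) but kept its call in only 1 of 6 fits that left out a replicate, the one without parental replicate 3, and lost it with TPM (0.096, adjusted p = 0.101), quantile normalization (0.039, adjusted p = 0.489) and upper-quartile scaling (0.071, adjusted p = 0.232).

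Side enzymes of the sterol and isoprenoid pathway had 3 genes higher and 1 lower of 18 tested (16.7% and 5.56%, both below the shares over all genes, median 0.051), and 2 and 1 without M8 replicate 1. Pdss1, which makes the isoprenoid tail of coenzyme Q, was at 7.26, 8.21 and 7.60 FPKM in parental and 12.4, 11.8 and 12.2 FPKM in M8 cells. This ratio of 1.58 was above that of any of the 36 members (log2 fold change 0.60, SE 0.0589, adjusted p = 0.000290). Ebpl, a relative of Ebp without known isomerase activity, went against Ebp, with 5.46, 5.94 and 6.83 FPKM in parental and 3.51, 3.76 and 4.01 FPKM in M8 cells. All M8 values were lower (ratio 0.618, log2 fold change -0.57, SE 0.0858, adjusted p = 0.00194). Por, the reductase that feeds electrons to Cyp51 and Sqle, was higher (190 ± 5.68 against 218 ± 3.34 FPKM, SD, n = 3, log2 fold change 0.19, adjusted p = 0.00648), but not with quantile normalization (0.089, adjusted p = 0.160).

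Of 13 tested genes of sterol efflux, esterification and LXR, 2 were higher and 3 lower (15.4% and 23.1%, against 21.2% and 16.5% of all genes tested, median 0.0012), and 0 and 3 without M8 replicate 1. Gramd1a, which moves cholesterol from the plasma membrane inward (log2 fold change -0.28, limma adjusted p = 0.00329), and Scarb1, the HDL receptor (-0.22, adjusted p = 0.0110), were lower, and Soat1, which esterifies cholesterol, was higher (0.16, adjusted p = 0.0695). The Soat1 call was lost in 8 of 18 other fits (adjusted p = 0.1003 to 0.215), namely without parental replicate 1, M8 replicate 1 or M8 replicate 3, with no filter or no trend, and under TPM, quantile or upper-quartile scaling. Of 21 tested genes of fatty acid elongation, activation and cofactors, 5 were higher and 2 lower (23.8% and 9.52%, median 0.022), and 4 and 1 without M8 replicate 1. Acsl5, an acyl-CoA synthetase, was at 65.5, 62.0 and 61.7 FPKM in parental and 79.2, 78.0 and 79.7 FPKM in M8 cells. The lines stood clearly apart (ratio 1.25, log2 fold change 0.32, adjusted p = 0.000898). Mcat, of mitochondrial fatty acid synthesis (0.24, adjusted p = 0.00973), and Hacd2, the dehydratase of the elongation cycle (0.24, adjusted p = 0.0249), were higher as well.

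Of the 14 members called, 8 kept their call under every other fit that tested them, namely Mvk, Nsdhl, Ebp, Scap, Elovl1, Fads1, Acss2 and Me1. The 6 that lost it in at least 1 fit were Sqle, Msmo1, Srebf1, Stard4, Elovl6 and Fads2.

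**Figure D5:**
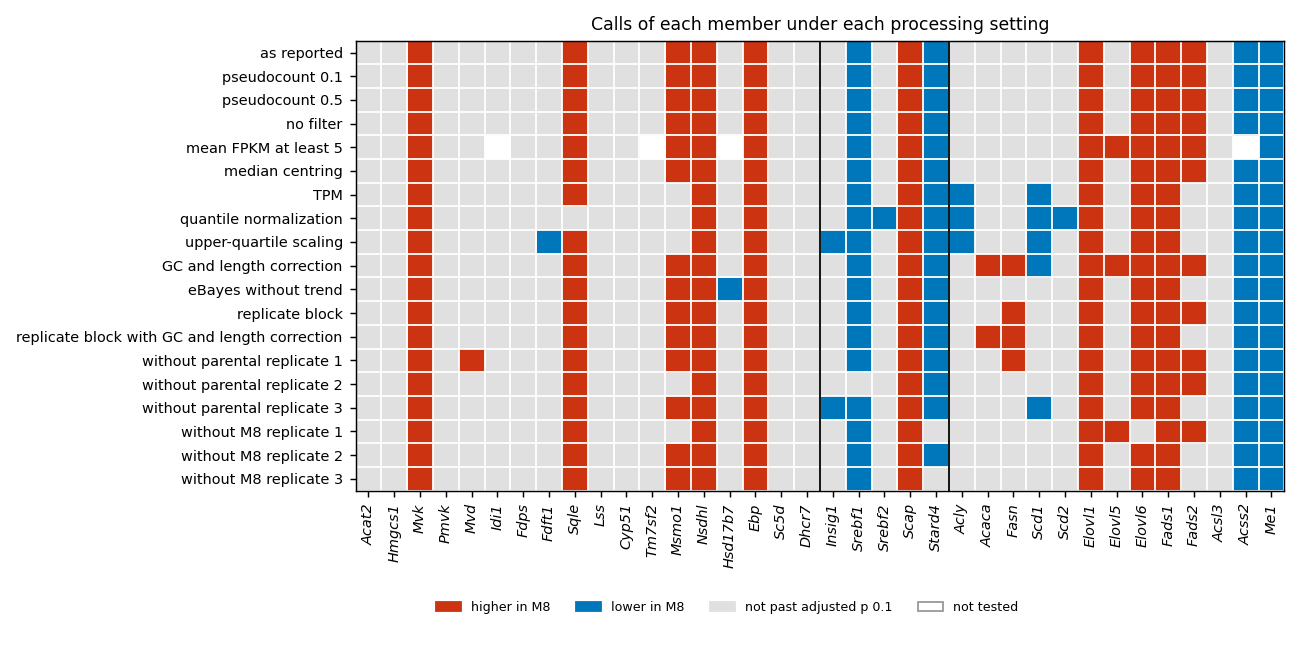
Call of each gene (columns) in the reported fit (top row) and in 18 other fits (rows), red for higher and blue for lower in M8 at an adjusted p below 0.1, gray for not past it and white for not tested. Mvk, Nsdhl, Ebp, Scap, Elovl1, Fads1 and Me1 form unbroken columns, Acss2 is interrupted by 1 fit that did not test it, and calls gained elsewhere fall mainly on Scd1, Fasn, Acly and Elovl5.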

How the data were processed

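RNA sequencing of 3 parental and 3 M8 replicates, which the study calls biological replicates, was analysed. The authors prepared stranded mRNA libraries, mapped 101-base single reads to mm10 and deposited FPKM values from Cufflinks for 24346 gene symbols per sample. The submitters' processing notes list TopHat2 2.1.1, Bowtie2 2.2.8, SAMtools 0.1.18 and Cuffdiff 2.2.1. The annotation, filters on low values and the strand setting are not given in the sources used here. FPKM is scaled by the mapped total, so a few abundant genes can shift all others. The study's own comparison rested on read counts, which were not used here.

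The 10597 genes whose FPKM averaged 1 or more across the 6 samples entered limma 3.58.1 under R 4.3.3, with lmFit and eBayes (trend), on log2(FPKM + 1), without covariates, with Benjamini-Hochberg adjustment over all of them and a threshold of 0.1, the study's false discovery rate. Log2 fold changes of low genes are understated by the added 1, and ratios are of mean FPKM. Replicate values were all distinct. The members and lists were chosen with earlier results of these data known. No p-value was computed for a list.

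Values in every sample are given for members past the threshold and, whatever their change, for Srebf1, Srebf2, Scap, Insig1, Fasn, Acaca and Hmgcs1, other members being given by ranges and counts, and up to 3 genes with the largest change past the threshold are named from each related list. Values of Mvd and Hsd17b7 were added after they were seen. The other fits used pseudocounts of 0.1 and 0.5, no filter or one at 5 FPKM, TPM, median centring, upper-quartile scaling, quantile normalization, a loess correction for GC content and length (span 0.5), eBayes without the trend, the replicate number as a block (also with that correction), and each replicate left out in turn. An adjusted p below 0.05 was the 19th alternative. The fit was tested on simulated data. Sequences and motif matches came from RefSeq promoters of GRCm38.p6, the build of mm10. Python 3.11.15 (pandas 2.3.3, matplotlib 3.10.9) drew the tables and figures.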

Additional observations from a re-analysis of the deposited data

How the results depend on the processing

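Results were recomputed under 19 alternatives. Over 37 single genes (the 14 members called, Srebf2, Insig1, Fasn, Acaca, Hmgcs1 and the genes named from related lists), 638 of 701 values kept their direction and their side of the threshold, 53 no longer passed, 9 newly passed and 1 reversed (Hmgcs1, 0.0041 without parental replicate 1, within a range of -0.17 to 0.0041 as replicates were left out). Over all 36 members, 11 that did not pass were called in at least 1 alternative, 24 values in all. Cholesterol genes higher in M8 were 5, but 3 with quantile normalization, and lower were 0, but 1 each with upper-quartile scaling and without the trend. Fatty acid genes lower were 2, but 1 with a mean FPKM of at least 5 (Acss2 not tested), 5 with quantile normalization and 4 each with TPM and upper-quartile scaling, and higher were 4, but 7 with GC and length correction. The difference of the medians (-0.018) was -0.062 with that correction, with or without the block. Over all genes, 2250 were higher and 1745 lower, but 1470 and 2769 with upper-quartile scaling and 1658 and 2209 with TPM. Leaving out 1 replicate gave 1609 to 2101 higher and 1157 (without M8 replicate 1) to 1672 lower over all genes, 4 to 6 cholesterol genes higher, 3 to 5 fatty acid genes higher and 2 to 3 lower, 1 to 3 control genes lower (1 without parental replicate 2, M8 replicate 1 or M8 replicate 3) and a difference of medians of -0.066 to 0.022. At an adjusted p below 0.05, Fads2 was the 1 member lost. The causes were not tested. With the replicate block, 2171 genes were higher and 1688 lower, and 5 cholesterol and 5 fatty acid genes were higher, Fasn being the 1 member gained. Over all genes tested, deviations from the line means had correlations of 0.10, -0.11 and -0.033 between replicates with the same number. The labels do not say whether same-numbered samples were handled together, and these correlations cannot decide it. The depth of M8, lower by a rough estimate, would limit genes near 1 FPKM most, such as Tm7sf2 and Hsd17b7. No counting error can be given from FPKM.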

Other observations

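Lists for the use of fatty acids were also read. Of 12 tested genes of glycerolipid synthesis, 3 were higher and 4 lower in M8 (25% and 33.3%, against 21.2% and 16.5% of all genes tested, median log2 fold change 0.0086), and 2 and 3 without M8 replicate 1. Agpat4, an acyltransferase of phosphatidic acid synthesis (11.9, 12.6 and 12.01 FPKM in parental and 8.72, 11.1 and 9.21 FPKM in M8 cells), was lower in every M8 replicate (log2 fold change -0.31, SE 0.0799, limma adjusted p = 0.0195). Lpin2, a phosphatidate phosphatase, was at 9.87, 10.4 and 10.2 FPKM in parental and 7.74, 8.10 and 8.69 FPKM in M8 cells, also without overlap (-0.29, adjusted p = 0.00748). Dgat2, which makes triglycerides, was called lower although the lines overlapped (10.04, 8.11 and 9.65 against 6.96, 6.81 and 8.48 FPKM, -0.29, adjusted p = 0.0496), and the call was lost without parental replicate 1 or 3 or M8 replicate 1 or 2, or with no filter (adjusted p = 0.118 to 0.153).

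Of 14 tested genes of fatty acid oxidation, 3 were higher and 2 lower (21.4% and 14.3%, against 21.2% and 16.5% of all genes tested, median -0.042), and 1 and 1 without M8 replicate 1. Acadvl, which opens the oxidation of very long chains, was at 31.1, 32.3 and 32.8 FPKM in parental and 23.1, 25.99 and 27.1 FPKM in M8 cells. All M8 replicates were lower (log2 fold change -0.33, SE 0.0604, limma adjusted p = 0.00442). Hadha, of the trifunctional protein that acts on the same long chains, was higher (32.1 ± 0.327 against 36.9 ± 1.18 FPKM, SD, n = 3, adjusted p = 0.00860), as was the mitochondrial hydratase gene Echs1 (0.16, adjusted p = 0.0750), whose call was lost in 8 of 18 other fits (adjusted p = 0.103 to 0.314), namely without parental replicate 2 or 3 or M8 replicate 1, with no filter or no trend, and under TPM, quantile or upper-quartile scaling.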
